A study of Mus musculus with 8 samples.

Results

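The genes described here are Mat2a, Ahcy, Mtr, Cbs, Cth, Gss, Gpx4, Chac1 and Ggct, 9 of the 24460 genes counted in mouse embryonic fibroblasts (MEFs). They were taken by name from the first column of the count files, as enzymes of the methionine cycle, of transsulfuration and of glutathione synthesis, use and breakdown. They were chosen with their values across the doses already known, so the values, calls and intervals given for them below are a description, and none is an independent test. Wild type MEFs, cultured fibroblasts of the mouse embryo, were grown in DMEM without RHPS4 (3 libraries) or with RHPS4 at 2 µM (3 libraries) or 10 µM (2 libraries). RHPS4 is a small molecule that binds G-quadruplexes (G4s), 4-stranded DNA or RNA structures of stacked guanines. All groups had the same medium, and no strain is named. The labels give a pair of exposure times without saying which of them the sequenced cells had, and do not say whether the replicates were separate cultures, so the errors below measure the spread between libraries, which may be technical. In bulk RNA, fewer cells of a type and less RNA per cell cannot be told apart.

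The methionine cycle turns methionine into S-adenosylmethionine, the methyl donor of the cell, and then into homocysteine, which is either methylated back to methionine or passed on. Transsulfuration is the second route. It joins homocysteine to serine and cuts the product to release cysteine, the amino acid that most often limits glutathione synthesis. Glutathione, a tripeptide of glutamate, cysteine and glycine, is the main soluble thiol of animal cells, is used to reduce peroxides, and is broken down in the cytosol by enzymes that cut its gamma-glutamyl bond. In cells short of amino acids or with impaired mitochondria or protein folding, the transcription factor ATF4 is known to raise a set of genes for amino acid supply, to which Chac1 and Cth belong.

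Of the 9 genes, 2 were set apart at 10 µM RHPS4. Chac1 and Cth were 4.14-fold and 4.70-fold above untreated cells at that dose. At 2 µM they were 1.16-fold and 1.35-fold above untreated cells, and neither met the limits for a call given below. Mat2a and Ahcy were 1.16-fold and 1.14-fold above untreated cells at 2 µM. At 10 µM the 7 genes other than Chac1 and Cth lay between −0.19 and 0.21 on the log2 scale. Cbs, the enzyme one step before Cth, was among these 7, as were Gss, which makes glutathione, and Ggct, another cyclotransferase. Cbs (4 to 24 counts per library) and Ggct (20 to 60) had few counts. Their 95% intervals at 10 µM were −0.99 to 0.69 and −0.82 to 0.44 on the log2 scale. These hold a 1.5-fold change in either direction for Cbs and a 1.5-fold fall for Ggct.

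The promoter of Chac1 is shown because it is the promoter of one of the 2 genes that were higher at 10 µM, and because it holds letters related to the site that ATF4 binds together with C/EBP proteins, TGATGNAA. It covers chr2:119350992-119351291 on the plus strand of GRCm38.p6 (RefSeq), 250 bases before to 50 after the annotated start. Capitals mark TTGCATCA, which reads TGATGCAA on the opposite strand and lies 193 to 186 bases before the start, and TGACGCAA, which has C in place of the T of that motif and lies 250 to 243 bases before it. The second motif, TGACGNAA, was chosen after the sequence had been read.
Chac1 promoter: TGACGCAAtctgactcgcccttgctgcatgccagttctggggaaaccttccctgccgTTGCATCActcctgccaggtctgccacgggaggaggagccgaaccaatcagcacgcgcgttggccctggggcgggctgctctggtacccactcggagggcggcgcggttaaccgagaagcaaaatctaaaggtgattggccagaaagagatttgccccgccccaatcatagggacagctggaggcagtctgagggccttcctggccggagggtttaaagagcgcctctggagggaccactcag
On either strand, TGATGNAA occurred in 3.97% of the 32851 promoters of this length, and TGACGNAA in 1.59%. RefSeq windows were at hand for 8 of the 9 genes (11 windows in all, Cth not among them), and of these only that of Chac1 held either motif. The cyclic AMP response element TGACGTCA occurred in none of the 11 windows (1.79% of all promoters). The antioxidant response element core TGACNNNGC occurred in the window of Ggct alone (12.4%). A match of letters is a description of the window and does not show that a factor binds there.

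Stretches that match the G4 pattern, 4 runs of GGG with 1 to 7 bases between them on either strand, are shown because RHPS4 binds such structures. They occurred in 18.5% of all promoters and in 4 of the 11 windows, those of Mat2a, Gpx4 and Cbs, of which Gpx4 has a pair of overlapping windows with the same stretch. The first 2 are written as the C-rich strand, whose complement carries the guanines.
Mat2a promoter stretch: CCCTGCCAACCCCCATCCGCCCGCCC
Gpx4 promoter stretch: CCCAGCCCCGCCCAAGCCGTCCC
Cbs promoter stretch: GGGGTGGAGAGGGGAAGGGGTGTGGG
They lie 122 to 97 bases before the start of Mat2a (window chr6:72439507-72439806, minus strand), 124 to 102 bases before that of Gpx4 (window chr10:80053315-80053614, plus strand) and 115 to 90 bases before that of Cbs (window chr17:31637156-31637455, minus strand). None of these 3 genes was called at either dose, though Cbs had too few counts to show a 1.5-fold change. The window of Chac1 held no such stretch, and no window of Cth was at hand. Whether such stretches go with a change was not tested.

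The libraries held 10455965 to 26688121 counts, so that 3 counts, taken as the floor, were worth 0.119 to 0.311 CPM (counts scaled to library size by the TMM method), for counting error only. All 9 genes were among the 14296 that passed the filter on low counts. A gene was called when its fold change exceeded 1.5 and its adjusted p from edgeR was below 0.01. The first untreated library stood apart from the others of its group (chi-square per degree of freedom of 15.4 and 20.2, against 3.23 between the others). Values without it are given for Ahcy, Cbs, Cth, Gss, Gpx4 and Chac1. All 9 fibroblast markers were tested, and 6 had means above 10 CPM in untreated cells, led by Vim with 3689 CPM. Fbln1 (8.50 CPM), Thy1 (7.25 CPM) and Lum (0.996 CPM) were below that. The sum of the 9 markers was 8564 to 9380 CPM at 0 µM, 8009 to 8987 CPM at 2 µM and 7683 to 8202 CPM at 10 µM. One of them, Pdgfrb, was called lower at 10 µM (log2 fold change −0.60 ± 0.0684 SE, adjusted p = 0.000248, edgeR). The summed markers of epithelial, endothelial, haematopoietic, muscle, hepatocyte and neural cells stayed at or under 10.1 CPM in every library, with no marker at 0 in all libraries. The neural sum was 4.46 to 4.96 CPM at 0 µM and 8.78 to 10.1 CPM at 10 µM, where Tubb3 was called higher (adjusted p = 0.000351, edgeR); the part of such cells in the values below was not tested.

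At 2 µM against 0 µM, none of the 9 genes was called by edgeR or by DESeq2 (which gave Cbs no adjusted p), against 0.497% of all tested genes by edgeR. At an unadjusted p under 0.05 there were 4 of 9 (Mat2a, Ahcy, Cth and Chac1, all higher), against 21.3% of all genes. At 10 µM against 0 µM, 2 of 9 were called by both tools, against 3.09% by edgeR, and at 10 µM against 2 µM the same 2, against 5.51%. The counts at an unadjusted p under 0.05 were 2 of 9 (29.4% of all genes) and 4 of 9 (36.5%). In 3 of the 9 genes at 2 µM the libraries did not overlap with the untreated ones (25.7% of all genes), as in 3 of 9 at 10 µM (42.9%). Since the genes were chosen on these contrasts, nothing is read from the shares. The median log2 fold change of the 9 genes was 0.17 at 2 µM against 0 µM (all genes, −0.01), −0.01 at 10 µM against 0 µM (all genes, 0.02) and −0.06 at 10 µM against 2 µM (all genes, 0.03). The comparisons of the 2 doses with untreated cells share the same 3 control libraries.

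**Figure D1:**
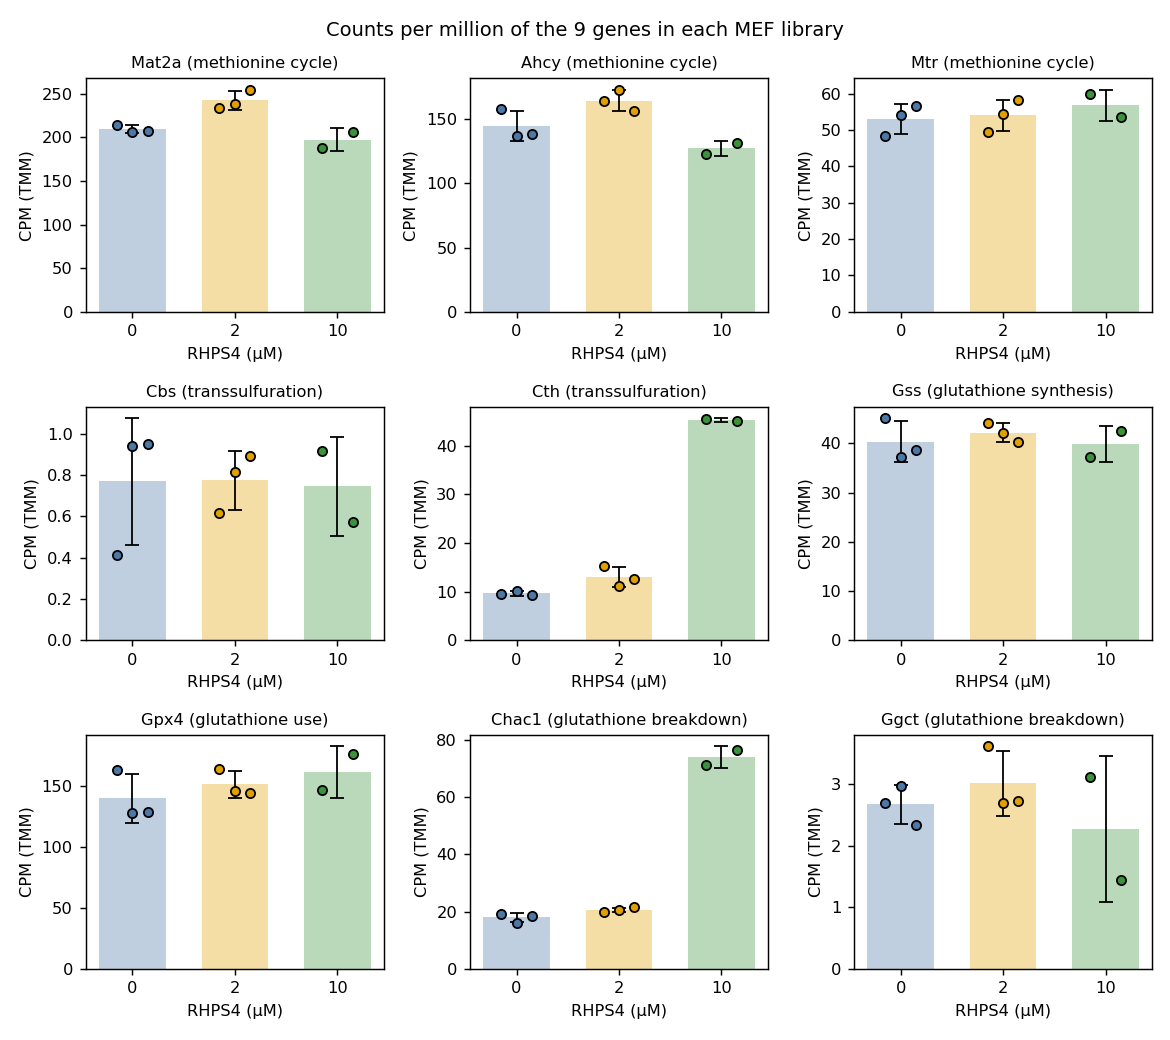
CPM (TMM-scaled, y axis, each from 0) of the 9 genes by RHPS4 dose (x axis), with 1 point per library, bars at the mean and error bars of 1 SD (n = 3, 3 and 2). Chac1 and Cth stand at 71.4 to 76.6 CPM and 45.0 to 45.5 CPM in the 10 µM libraries, above all other libraries, while the points of Mtr, Cbs, Gss, Gpx4 and Ggct overlap between the doses.

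Mat2a (chr6:72432799-72439558, minus strand, GRCm38) encodes the methionine adenosyltransferase of most tissues outside the adult liver, which makes S-adenosylmethionine. It was at 214.4, 205.7 and 207.5 CPM in the untreated libraries, at 233.3, 238.7 and 254.8 CPM at 2 µM, and at 187.9 and 206.5 CPM at 10 µM. Every 2 µM library was above every untreated one, while the 10 µM libraries reached into the untreated range. The log2 fold change was 0.21 ± 0.0685 (SE) at 2 µM and −0.08 ± 0.0767 at 10 µM, and between the doses it was −0.30 ± 0.0771 from 2 to 10 µM. Libraries above all untreated ones at 2 µM were seen in 12.7% of all genes. An 11.3% share of the exon bases of Mat2a is overlapped by Particl on the opposite strand, and the strand setting of the counting is not given in the sources used here.

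Ahcy (chr2:155059310-155074497, minus strand) encodes adenosylhomocysteinase, which hydrolyses the product of methyl transfer and so releases homocysteine. It was at 158.0, 137.2 and 138.7 CPM in untreated cells, 163.8, 173.1 and 156.5 CPM at 2 µM, and 123.0 and 131.4 CPM at 10 µM. The lowest 2 µM library lay below the highest untreated one, and both 10 µM libraries lay below all others, as was the case for 20% of all genes at 10 µM against 0 µM. Ahcy had log2 fold changes of 0.19 ± 0.0770 at 2 µM and −0.18 ± 0.0866 at 10 µM, neither past the 1.5-fold limit. Without the first untreated library these were 0.26 ± 0.0679 and −0.14 ± 0.0743, and every 2 µM library lay above the remaining untreated ones. By their means Mat2a and Ahcy were highest at 2 µM and lowest at 10 µM. From 2 to 10 µM Ahcy had a log2 fold change of −0.37 ± 0.0870, and both 10 µM libraries of both genes were below every 2 µM library, which held for 24.9% of all genes. For Ahcy, 65.9% of the 75-base stretches of its transcripts also occur in transcripts of Gm4737, Gm5638 or Gm9826, so that uniquely mapped fragments cover only part of it and its level is uncertain.

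Mtr (chr13:12182712-12258113, minus strand) encodes methionine synthase, which returns homocysteine to methionine. It was at 48.5, 54.0 and 56.5 CPM, at 49.5, 54.4 and 58.2 CPM, and at 59.8 and 53.7 CPM at 0, 2 and 10 µM. The 3 groups overlapped. Its log2 fold change of 0.09 ± 0.0976 at 10 µM had a 95% interval of −0.12 to 0.31, which leaves out a change of 1.5-fold in either direction.

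Cbs (chr17:31608894-31637238, minus strand) encodes cystathionine beta-synthase, the first enzyme of transsulfuration, which joins homocysteine and serine. It was close to the floor of the libraries, with 4, 19 and 24 counts in untreated cells, 7, 10 and 15 at 2 µM, and 15 and 8 at 10 µM. In CPM these were 0.415, 0.942 and 0.953, then 0.617, 0.815 and 0.892, and then 0.916 and 0.576. All groups overlapped, and the mean was 0.770 ± 0.307 CPM (SD, n = 3) without RHPS4 and 0.746 ± 0.241 (n = 2) at 10 µM. The log2 fold change at 10 µM was −0.15 with a 95% interval of −0.99 to 0.69, so that a change of 1.5-fold in either direction was not detectable at this depth. It was −0.34 without the first untreated library, −0.58 without the first 10 µM library and 0.09 without the second.

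Cth (chr3:157894248-157925077, minus strand) encodes cystathionine gamma-lyase, the second enzyme of the route, which releases cysteine. It had 92, 204 and 232 counts in untreated cells, which are 9.55, 10.1 and 9.21 CPM. At 2 µM it was at 15.3, 11.2 and 12.6 CPM, and at 10 µM at 45.5 and 45.0 CPM. The 3 doses did not overlap: each 2 µM library was above each untreated one, and both 10 µM libraries were far above all others. The log2 fold change was 0.43 ± 0.119 at 2 µM, 2.23 ± 0.118 (95% interval 1.98 to 2.49) at 10 µM and 1.80 ± 0.117 from 2 to 10 µM. Without the first untreated library it was 0.44 ± 0.129 at 2 µM and 2.21 ± 0.127 at 10 µM. Among all genes, both 10 µM libraries were above every untreated one in 22.9% and above every 2 µM one in 27%. By log2 fold change Cth ranked 10 of 14296 genes at 10 µM, highest first, and 422 at 2 µM.

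Within a library, the log2 ratio of Cth to Cbs counts was 3.67 ± 0.606 (SD, n = 3) at 0 µM, 4.01 ± 0.461 at 2 µM and 5.90 ± 0.432 (n = 2) at 10 µM, and that of Cth to Mat2a was −4.44 ± 0.0827, −4.22 ± 0.263 and −2.12 ± 0.109. The first of these ratios carries the counting error of Cbs. Such ratios do not depend on how the libraries are scaled.

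Gss (chr2:155563181-155592810, minus strand) encodes glutathione synthetase, which adds glycine in the last step of glutathione synthesis. It was at 45.2, 37.3 and 38.7 CPM in untreated cells, 44.2, 42.1 and 40.3 CPM at 2 µM, and 37.2 and 42.4 CPM at 10 µM. The groups overlapped, and the log2 fold change of −0.01 ± 0.103 at 10 µM had a 95% interval of −0.24 to 0.21. At 2 µM the log2 fold change was 0.07 ± 0.0926, and 0.16 ± 0.0846 without the first untreated library. Every 2 µM library lay above the remaining untreated ones in that case. Exons of Acss2 on the opposite strand overlap 6.68% of the exon bases of Gss.

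Gpx4 (chr10:80047166-80056439, plus strand) encodes the glutathione peroxidase that reduces lipid peroxides in membranes and restrains ferroptosis. It was at 163.5, 128.1 and 128.4 CPM in untreated cells, 164.3, 146.1 and 144.1 CPM at 2 µM, and 146.4 and 176.3 CPM at 10 µM. The groups overlapped through the first untreated library, and without it every treated library was above the remaining untreated ones. For Gpx4 the log2 fold change at 10 µM was 0.21 ± 0.121 with that library and 0.31 ± 0.0968 without it, and it was 0.04 ± 0.145 when the second 10 µM library was left out. From 2 to 10 µM it was 0.09 ± 0.121, and −0.09 ± 0.146 without that library. Of its 75-base stretches 29.8% also occur in AC122253.3 or Gpx4-ps2.

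Chac1 (chr2:119351229-119354381, plus strand) encodes a gamma-glutamylcyclotransferase that cleaves glutathione in the cytosol. It had 186, 326 and 465 counts in untreated cells, or 19.3, 16.2 and 18.5 CPM. At 2 µM it was at 20.0, 20.5 and 21.5 CPM, and at 10 µM at 71.4 and 76.6 CPM. The 2 µM libraries lay just above the untreated ones, and the 10 µM libraries lay far above both. The log2 fold change was 0.21 ± 0.0914 at 2 µM, 2.05 ± 0.0937 (95% interval 1.84 to 2.25) at 10 µM and 1.84 ± 0.0939 from 2 to 10 µM. Without the first untreated library it was 0.26 ± 0.0951 and 2.07 ± 0.0976 at 2 and 10 µM. By log2 fold change Chac1 ranked 13 of 14296 genes at 10 µM and 2098 at 2 µM.

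Ggct (chr6:54982580-54992950, minus strand) encodes another gamma-glutamylcyclotransferase, which acts on gamma-glutamyl amino acids and forms 5-oxoproline. It had 20 to 60 counts per library and was at 2.70, 2.97 and 2.34 CPM in untreated cells, 3.61, 2.69 and 2.73 CPM at 2 µM, and 3.11 and 1.44 CPM at 10 µM. The 2 libraries at 10 µM differed by more than the group means did, and the log2 fold change of −0.19 ± 0.287 at 10 µM had a 95% interval of −0.82 to 0.44. Without the first 10 µM library it was −0.91, and without the second it was 0.20.

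The log2 ratio of Chac1 to Ggct counts within a library was 2.74 ± 0.276 (SD, n = 3) at 0 µM, 2.78 ± 0.279 at 2 µM and 5.10 ± 0.845 (n = 2) at 10 µM, and that of Chac1 to Gss was −1.16 ± 0.0861, −1.03 ± 0.116 and 0.89 ± 0.0610. The log2 ratio of Chac1 to Cth was 0.90 ± 0.192, 0.68 ± 0.259 and 0.71 ± 0.0854, and its values overlapped between the 3 groups.

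**Figure D2:**
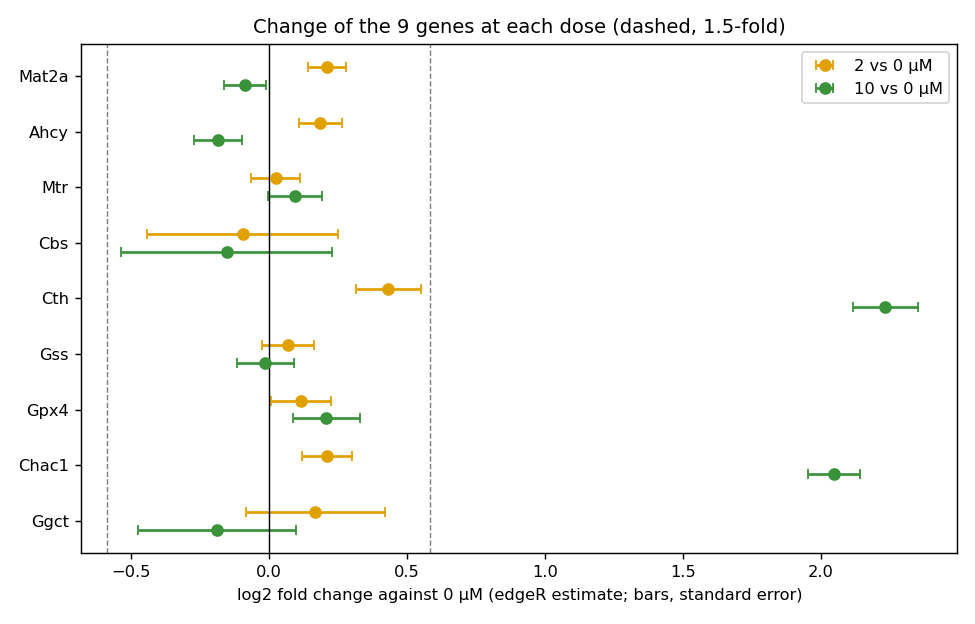
The log2 fold change of each of the 9 genes (edgeR, x axis; bars, standard error) at 2 µM and at 10 µM RHPS4 against the same 3 untreated libraries, with dashed lines at 1.5-fold. Chac1 (2.05) and Cth (2.23) at 10 µM lie far to the right, and all other points lie within the dashed lines.

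To compare levels between genes, CPM were divided by the length of all exon bases of each gene in kilobases (RPKM). In untreated cells the order of the mean levels was Gpx4 (81.2 ± 11.8 RPKM, SD, n = 3), Ahcy (51.6 ± 4.12), Mat2a (46.6 ± 1.03), Chac1 (10.98 ± 0.996), Gss (6.82 ± 0.711), Mtr (6.22 ± 0.482), Cth (3.45 ± 0.163), Ggct (0.345 ± 0.0409) and Cbs (0.103 ± 0.0410). Gss and Mtr overlapped between libraries and the other neighbours did not. At 10 µM Chac1 had 45.2 ± 2.26 RPKM (n = 2), in the range of Ahcy (45.4 ± 2.12) and Mat2a (43.96 ± 2.92), and these 3 overlapped. Cth had 16.2 ± 0.148 RPKM at 10 µM and stood above Gss (6.74 ± 0.622) and Mtr (6.66 ± 0.512), both of which it was below without RHPS4. With the length of the longest transcript in place of all exon bases, the untreated order of Mat2a (61.8 RPKM) and Ahcy (56.9 RPKM) was turned, as was that of Gss (12.4 RPKM) and Chac1 (10.98 RPKM). At 10 µM on that scale both Chac1 libraries (43.6 and 46.8 RPKM) lay below those of Ahcy (48.4 and 51.7 RPKM) and Mat2a (55.5 and 61.0 RPKM), so that the overlap of these 3 genes depends on the length used.

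**Figure D3:**
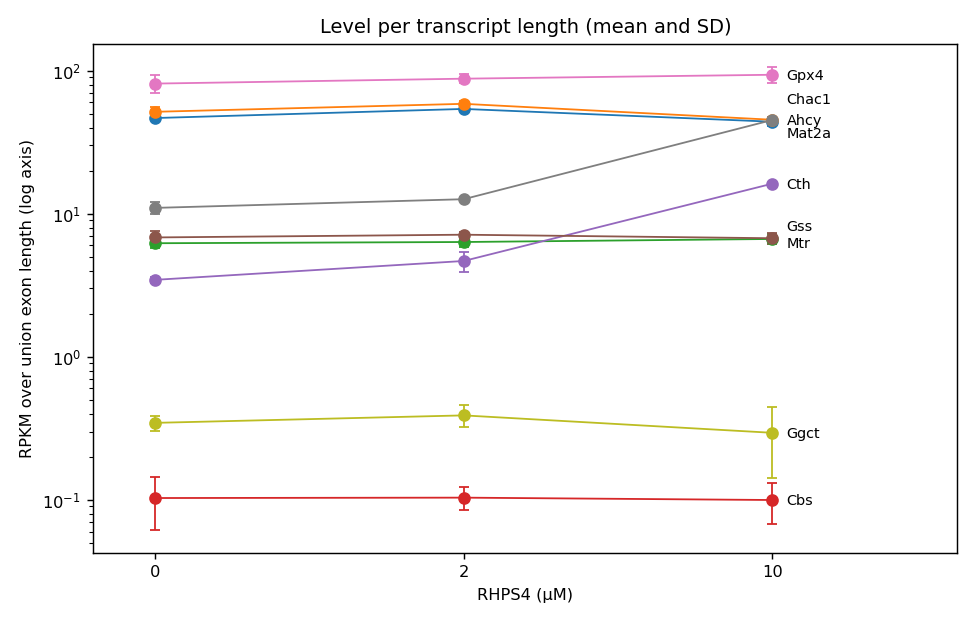
Mean level per kilobase of exon bases (RPKM, log y axis; bars, SD) of the 9 genes at 0, 2 and 10 µM RHPS4 (x axis, doses evenly spaced; n = 3, 3 and 2). Chac1 goes from 10.98 to 45.2 RPKM and Cth from 3.45 to 16.2 RPKM between 0 and 10 µM, while the other 7 genes keep their order.

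Other genes of these pathways were examined from 6 lists with 62 further genes, of which 52 passed the filter. None was called at 2 µM against 0 µM by edgeR (background 0.119% higher and 0.378% lower) or DESeq2, with 13 of 52 at an unadjusted p under 0.05, against 21.3% of all genes. At 10 µM against 0 µM 1 was called higher and none lower (background 1.95% higher and 1.14% lower). From 2 to 10 µM 3 were called higher and 3 lower (background 3.92% and 1.59%). The medians of the 52 log2 fold changes were −0.05, 0.09 and 0.09 in the 3 comparisons, beside −0.01, 0.02 and 0.03 for all genes. All adjusted p values in the next paragraphs are from edgeR's quasi-likelihood test with Benjamini-Hochberg adjustment over the 14296 genes.

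None of the 4 tested genes of the methionine cycle list (Mat2b, Ahcyl1, Ahcyl2 and Mtrr) was called in any comparison. At an unadjusted p under 0.05 there was 1 at 2 µM against 0 µM (21.3% of all genes). There was none at 10 µM against 0 µM (29.4%) or from 2 to 10 µM (36.5%), and DESeq2 called none. The smallest p belonged to Mtrr, which keeps methionine synthase active, with a log2 fold change of 0.29 ± 0.0965 at 2 µM (adjusted p = 0.122). The mainly hepatic enzymes Mat1a, Bhmt, Bhmt2 and Gnmt did not pass the filter. On the salvage and polyamine branch S-adenosylmethionine is spent on polyamines and methionine is regained. Of its 9 tested genes 2 were called lower from 2 to 10 µM (1.59% of all genes). They were Srm, spermidine synthase (log2 fold change −0.92 ± 0.185, adjusted p = 0.00515), and Enoph1, an enzyme of methionine salvage (−0.64 ± 0.126, adjusted p = 0.00468). Against 0 µM they had −0.77 (adjusted p = 0.0185) and −0.31 (adjusted p = 0.132) at 10 µM. The call of Srm from 2 to 10 µM was lost when the first or second 2 µM library or the second 10 µM library was left out (adjusted p = 0.0150, 0.0231 and 0.0247), and that of Enoph1 without the first or second 2 µM library or either 10 µM library (adjusted p = 0.0167, 0.0213, 0.0175 and 0.0332). Scaling by total counts also ended both calls (adjusted p = 0.0121 and 0.0126), and the replicate block that of Srm (adjusted p = 0.0136). At 10 µM against 0 µM Srm was called lower by DESeq2 (log2 fold change −0.80, adjusted p = 0.000214), with no filter (−0.81, adjusted p = 0.00359), and without the first untreated (−0.89, adjusted p = 0.00532) or the first 10 µM library (−1.23, adjusted p = 0.00226).

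Of 7 other genes for transsulfuration and cysteine oxidation, all tested, none was called in any comparison by either tool. At an unadjusted p under 0.05 there were 2 at 2 µM against 0 µM (21.3% of all genes), 3 at 10 µM against 0 µM (29.4%) and 5 from 2 to 10 µM (36.5%). The smallest p was that of Sqrdl, a mitochondrial enzyme that oxidizes hydrogen sulfide, whose log2 fold change was 0.48 ± 0.105 from 2 to 10 µM (adjusted p = 0.00799, under 1.5-fold) and 0.39 ± 0.102 at 10 µM against 0 µM (adjusted p = 0.0288). Cth was thus the one called gene of its list at 10 µM.

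Of the 4 other genes for glutathione synthesis and cystine uptake, 1 was called higher at 10 µM against 0 µM (1.95% of all genes) and 2 from 2 to 10 µM (3.92%). At an unadjusted p under 0.05 there were 1, 3 and 3 of the 4 in the 3 comparisons (21.3%, 29.4% and 36.5% of all genes). Slc7a11, the cystine carrier of the transporter system xc-, was called higher at 10 µM, from 36.1 ± 0.770 CPM (SD, n = 3) to 126.1 ± 4.27 CPM (n = 2; log2 fold change 1.80 ± 0.0762, adjusted p = 4.22e-07). It was also called from 2 to 10 µM (1.82 ± 0.0768, adjusted p = 1.76e-07). Its partner chain Slc3a2 had 0.47 ± 0.0779 at 10 µM against 0 µM (adjusted p = 0.00293, under 1.5-fold) and was called from 2 to 10 µM (0.64 ± 0.0781, adjusted p = 0.000313), where the fold fell under the limit without the first 10 µM library (0.50). The subunits of glutamate-cysteine ligase, which makes the first bond of glutathione, were not called: the catalytic subunit Gclc had −0.10 ± 0.0839 at 10 µM (adjusted p = 0.478) and the modifier Gclm −0.53 ± 0.114 (adjusted p = 0.0116).

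Of 12 other genes for glutathione breakdown 9 were tested and none was called in any comparison by either tool. At an unadjusted p under 0.05 there were 0, 1 and 4 of the 9 in the 3 comparisons (21.3%, 29.4% and 36.5% of all genes). Chac2, the closest relative of Chac1, was at 10.3 ± 1.73 CPM (SD, n = 3) without RHPS4 and 10.7 ± 0.589 CPM (n = 2) at 10 µM, with a log2 fold change of 0.09 ± 0.149 (adjusted p = 0.717). Cndp2, a dipeptidase of the cytosol, had the smallest p of the list (−0.32 ± 0.116 at 10 µM, adjusted p = 0.0940).

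Among 19 tested genes for the use and reduction of glutathione, none was called against 0 µM at either dose by either tool. At an unadjusted p under 0.05 there were 6 at 2 µM (21.3% of all genes), 7 at 10 µM (29.4%) and 10 from 2 to 10 µM (36.5%). From 2 to 10 µM Gsr, glutathione reductase, was called lower (log2 fold change −0.75 ± 0.0763, adjusted p = 8.28e-05) and Gsta4, a glutathione transferase that acts on lipid aldehydes, was called higher (0.60 ± 0.116, adjusted p = 0.00405). Over all genes 1.59% were called lower and 3.92% higher in this comparison. Gsr was at 108.8 ± 5.07, 125.9 ± 4.12 and 74.8 ± 0.633 CPM at 0, 2 and 10 µM, and against 0 µM it had −0.54 ± 0.0758 at 10 µM (adjusted p = 0.00103, under 1.5-fold), which passed the fold limit without the second untreated library (−0.60). The call of Gsta4 was lost under 10 of the 16 alternatives, 7 of which left out a library (the first or second untreated, any 2 µM or either 10 µM library), with log2 fold changes of 0.45 to 0.67 in those 7.

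**Figure D4:**
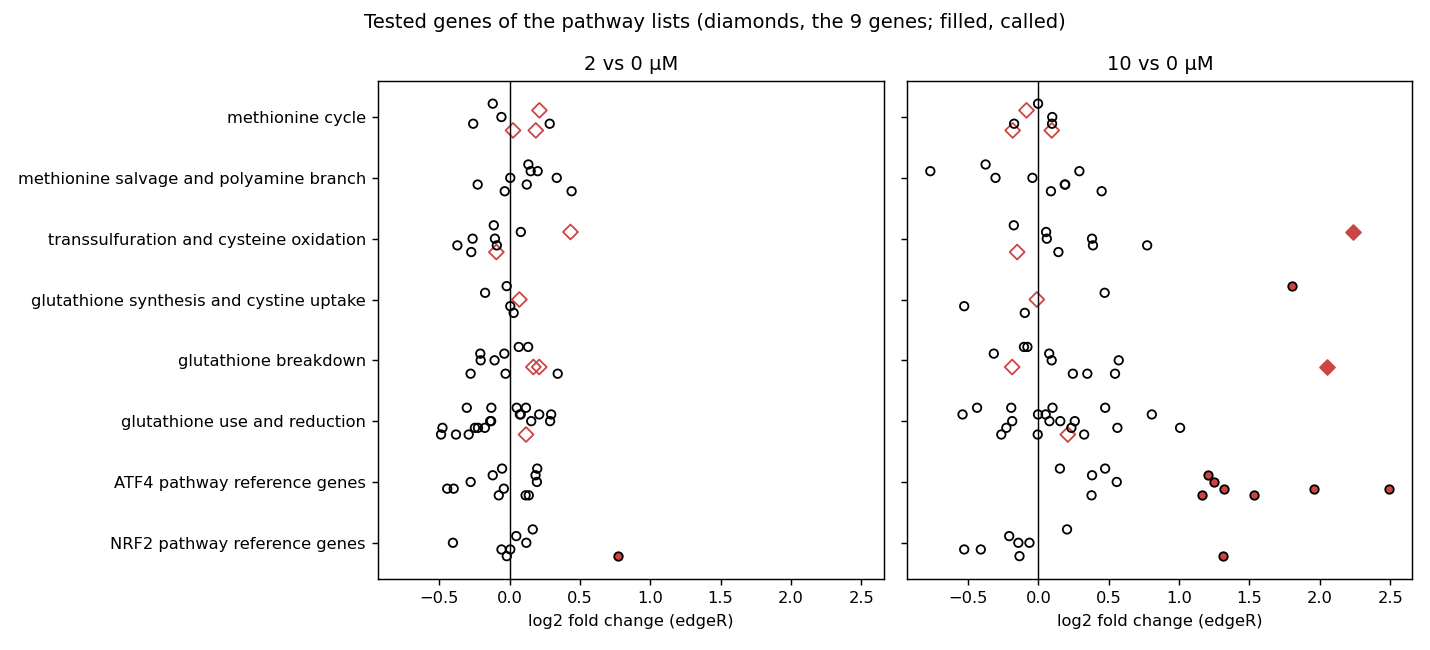
The log2 fold changes (edgeR, x axis) of the tested genes of the 6 pathway lists and of the 2 reference lists (rows) at 2 µM and at 10 µM RHPS4 against 0 µM; diamonds are the 9 genes, circles the others, and filled symbols were called. At 10 µM the filled symbols in the pathway rows are Cth (2.23), Slc7a11 (1.80) and Chac1 (2.05). In the ATF4 row 7 of 12 genes are filled (3.09% of all genes were called at 10 µM).

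For reference, 12 genes of the ATF4 pathway and 8 of the pathway of NRF2, the regulator of the antioxidant response, were read from the same fit. The first list holds Atf4 itself. The second holds Nfe2l2, which encodes NRF2, and Keap1, its repressor, beside target genes. None of the 12 ATF4 genes was called at 2 µM by either tool, with 5 at an unadjusted p under 0.05, 3 higher and 2 lower (21.3% of all genes). Every 2 µM library of Atf3 (log2 fold change −0.44), Ddit3 (−0.40) and Nupr1 (−0.28) lay below every untreated one (12.9% of all genes). Those of Psat1 (0.20) lay above (12.7%), and the other genes of the list overlapped. At 10 µM 7 of the 12 ATF4 genes were called higher and none lower (1.95% and 1.14% of all genes). The median log2 fold change of the 12 at 10 µM was 1.18, beside 0.02 for all genes. The 7 were Trib3 (2.50 ± 0.210, adjusted p = 2.82e-05), Atf3 (1.96 ± 0.134, adjusted p = 7.92e-06), Sesn2 (1.53 ± 0.119, adjusted p = 1.79e-05), Ddit3 (1.32 ± 0.130, adjusted p = 8.49e-05), Nupr1 (1.25 ± 0.125, adjusted p = 9.47e-05), Atf5 (1.20 ± 0.103, adjusted p = 3.18e-05) and Asns (1.16 ± 0.0822, adjusted p = 9.71e-06). Trib3 encodes a pseudokinase that restrains ATF4, Ddit3 the transcription factor CHOP, Sesn2 an inhibitor of mTORC1 signalling and Asns asparagine synthetase. At 10 µM the log2 fold changes of Cth and Chac1 lay within the range of these 7. The 7 were picked by the same call as Cth and Chac1, so nothing is read from this. The 5 genes of the list that were not called had lower values: Psat1 (0.47), Phgdh (0.38), Cebpg (0.38), Cebpb (0.15) and Atf4. Atf4 itself had 0.56 ± 0.0938 at 10 µM (adjusted p = 0.00326, under 1.5-fold).

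Of the 8 NRF2 genes, Nqo1, a quinone reductase, was the one that was called, at 2 µM (log2 fold change 0.77 ± 0.0958, adjusted p = 0.00220) and at 10 µM (1.31 ± 0.104, adjusted p = 1.91e-05). The call at 2 µM was lost when the second or the third untreated library or any of the 2 µM libraries was left out (adjusted p = 0.0119 to 0.0212). Over all genes 0.497% were called at 2 µM and 3.09% at 10 µM. At an unadjusted p under 0.05 there were 3 of the 8 NRF2 genes at 2 µM, 2 higher and 1 lower (21.3% of all genes). At 10 µM there were 5 of the 8, 2 higher and 3 lower (29.4%). The median of the 8 log2 fold changes was 0.03 at 2 µM and −0.14 at 10 µM.

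The genes whose log2 CPM followed Chac1 most closely over the 8 libraries were Rab39b (Pearson's r 0.996), Stam (0.996), Asns (0.995), Psph (0.994) and Arl14ep (0.992). For Cth they were Lcorl (0.993), Cyb5r1 (0.992), Gpcpd1 (0.988), Aasdh (0.985) and Eprs (0.982), and Chac1 and Cth themselves had an r of 0.978. These values rest mainly on the gap between the 10 µM libraries and the rest. Over the 6 libraries at 0 and 2 µM alone they were 0.715 to 0.873 for the 5 genes nearest to Chac1 and 0.804 to 0.936 for the 5 nearest to Cth. For Cbs, whose counts were few, the nearest were Nid2 (0.983), Fbrsl1 (0.977), Peli1 (0.972), Piezo1 (0.971) and Nckap1 (0.970). Values from the same library share its depth and preparation, and the genes were picked out of 14296 for their likeness, so these are descriptions.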

How the data were processed

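Total RNA was depleted of nuclear rRNA and made into stranded TruSeq libraries. Per the labels and the submitters' processing notes, reads were checked with FastQC, trimmed with Trim Galore and cutadapt, aligned to mm10 with STAR 2.5.2a and counted per gene with featureCounts. The authors deposited whole-number counts per gene for each of the 8 libraries, not normalized. The annotation and strand setting are not given in the sources used here. How fragments in exons overlapped by genes on the opposite strand were counted is therefore not known.

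The count model was edgeR 4.0.16 under R 4.3.3 (TMM, filterByExpr, glmQLFit, glmQLFTest, Benjamini-Hochberg adjustment over 14296 genes), with dose as the only factor over all 8 libraries, so that the 2 libraries at 10 µM shared the spread of the others. The SE is the log2 fold change divided by the square root of F. Ratios within a library added 0.5 to each count. Correlations used log2 CPM with a prior count of 2. Alternatives were RLE factors, TMM over nuclear genes, total counts, no filter, a filter of 10 counts per library, no minimum fold change, 2 groups alone, DESeq2 1.42.0, a block for the replicate number, and fits that each left out 1 library. The fit was tested on simulated data. Other steps used Python 3.11.15 with pandas 2.3.3. Gene positions and lengths were from GENCODE for GRCm38, the assembly named mm10.

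The 9 genes and all lists were chosen with earlier results of these data known. Named were the 9 genes, each listed gene called in any of the 3 comparisons or, where none was, the listed gene with the smallest p, and the 5 genes most correlated with Chac1, Cth and Cbs. Gclc, Gclm, Chac2, Atf4, Psat1, Phgdh, Cebpg, Cebpb, Pdgfrb and Tubb3 were named after their values were seen.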

Additional observations from a re-analysis of the deposited data

How the results depend on the processing

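Under the 16 alternatives, 8 of which left out a library, none of the 9 genes gained or lost a call in any comparison where a call could be made, and Chac1 (log2 fold change 1.95 to 2.26) and Cth (2.19 to 2.45) stayed called at 10 µM. The number of the 9 genes called was 0, 2 and 2 in the 3 comparisons in every fit, each library left out included (0 to 0, 2 to 2 and 2 to 2). Scaling by total counts moved the median of all genes to 0.23 at 10 µM against 0 µM, and turned the uncalled values of Mat2a (0.13), Ahcy (0.04), Cbs (0.06), Gss (0.21) and Ggct (0.02) positive, all below that median.

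Counts over all genes moved more. At 2 µM against 0 µM the 71 genes called became 107 with no minimum fold change, 109 with DESeq2, and 6 to 144 with a library left out: 144, 19 and 15 without the first, second and the third untreated library, and 24, 6 and 29 without the first, second and the third 2 µM library. At 10 µM against 0 µM the 442 became 747 with no minimum fold change, 914 with total counts, and 235 to 633 with a library left out (266 and 293 without the second and the third untreated library, 235 without the second 10 µM library). From 2 to 10 µM the 788 became 1539 with no minimum fold change and 444 to 884 with a library left out (515 without the second 2 µM library, 444 without the second 10 µM library).

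Of the other pathway genes, none was called at 2 µM in any fit (0 to 0). The 1 called at 10 µM became 4 with no minimum fold change, 6 with total counts, 2 with no filter and 2 with DESeq2, and 1 to 3 with a library left out (3 without the first untreated library, 2 without the second or without the first 10 µM library). From 2 to 10 µM the 6 became 9 with no minimum fold change and 3 to 6 with a library left out (3 without the first or second 2 µM library or the first 10 µM library). The cause of these differences was not tested. The same-numbered libraries at 0 and 2 µM had correlations of their deviations of 0.199, 0.0845 and 0.161. The differently numbered ones at these doses had −0.154 to 0.0584. Same-numbered libraries at 10 µM and a lower dose had −0.145 to −0.0212. The main fit did not take the numbers as pairs, and these values do not settle whether they are. With the replicate block, 54, 322 and 735 genes were called in the 3 comparisons, of the 9 genes 0, 2 and 2, and of the other pathway genes 0, 1 and 4. Depth limits Cbs (4 to 24 counts) and Ggct (20 to 60 counts). Cbs had values under 14 of the 16 alternatives: with at least 10 counts in every library it could not be fitted, and DESeq2 gave it no adjusted p.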

Other observations

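Within each dose group, the library with the highest Gpx4 level also had the highest Gss level and the lowest Mtr and Cbs levels. These were the first library at 0 µM (Gpx4 163.5 CPM, Gss 45.2 CPM, Mtr 48.5 CPM, Cbs 0.415 CPM), the first at 2 µM (164.3, 44.2, 49.5 and 0.617 CPM) and the second at 10 µM (176.3, 42.4, 53.7 and 0.576 CPM). Each was also the library with the fewest counts of its group (10455965, 11391061 and 12643261). Over all 8 libraries Gss had a Pearson's r of −0.88 with Cbs and −0.81 with Mtr, and Gpx4 −0.82 with Cbs and −0.52 with Mtr, on the log2 CPM scale. These values share depth and preparation, and the part of either in them was not tested. Of these libraries, the first at 0 µM (19.3 CPM) and the second at 10 µM (76.6 CPM) also had the highest Chac1 level of their groups, and the first at 2 µM had the lowest (20.0 CPM).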
